A study of Mus musculus with 11 samples.

Results

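The genes described here encode the potassium channel KCNQ1 and 4 of its small accessory subunits: Kcnq1, Kcne1, Kcne2, Kcne3 and Kcne4. They are 5 of the 34866 genes in the table of estimated counts and were chosen by name. Kcne1 and Kcne3 were picked because earlier results from these same samples showed opposite changes, so their levels and fold changes are given as a description with no test. Kcnq1, Kcne2 and Kcne4 were tested together with all other genes that passed the filter on low counts. All 5 genes passed that filter, which left 14889 genes.

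RNA was sequenced from mouse gastric corpus mucosa, the acid-secreting lining of the stomach body, in 11 samples of 4 genotypes. The groups were control mice labelled WT (n = 2), ATP4B-DTR mice (n = 3), GIF-DTR mice (n = 3) and GIF/ATP4B-DTR mice, the double line (n = 3). DTR is the diphtheria toxin receptor, which makes mouse cells that carry it sensitive to the toxin; the lines were designed to ablate parietal cells (ATP4B), chief cells (GIF) or both. Atp4b encodes a subunit of the parietal cell proton pump and Gif encodes intrinsic factor, which mouse chief cells secrete. Toxin dose, time after toxin, age, sex and whether the controls received toxin are not given in the sources used here. The labels do not say that the samples of a group came from separate animals, so p-values measure the spread between these samples, which may be technical. The ATP4B-DTR group was not all from a single animal, because its sample 1 held Y-linked RNA and samples 2 and 3 did not, as given below.

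KCNQ1 is the pore-forming subunit of a voltage-gated potassium channel, and KCNE proteins are single-pass membrane subunits that change how that pore opens. With KCNE2 the channel stays open at rest and at acid pH; in the apical membrane of the parietal cell it returns potassium to the gland lumen, where the proton pump exchanges it for acid. With KCNE1 the channel opens slowly and carries a delayed rectifier current in heart and inner ear, and with KCNE3 it is constitutively open and supports chloride secretion across intestinal and airway epithelium. KCNE4 inhibits KCNQ1.

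On mouse build mm10 (GRCm38), with gene models of GENCODE release M21, all 5 genes are protein coding. Kcnq1 (ENSMUSG00000009545.14) lies on the plus strand at chr7:143106362-143427042. Kcne3 (ENSMUSG00000035165.14) lies on the same chromosome and strand at chr7:100176502-100184869. Kcne2 (ENSMUSG00000039672.12) lies on the plus strand at chr16:92292389-92298129. Kcne1 (ENSMUSG00000039639.6) lies on the minus strand at chr16:92345982-92359468, 47.9 kb from Kcne2; the identifier is the table's, and release M21, from which these coordinates come, has a later version of this gene. Kcne4 (ENSMUSG00000047330.8) lies on the plus strand at chr1:78816758-78820028. Antisense genes overlap Kcnq1 (among them the imprinted transcript Kcnq1ot1) and Kcne3, and a long noncoding gene overlaps Kcne4 on the other strand; these genes were not analysed here. The library kit keeps strand, but whether the counting used it is not given in the sources used here, so reads from overlapping genes on opposite strands may be included. Another 8 annotated genes overlap Kcnq1 on its own strand, and strand would not separate their reads. None of the estimated counts of the 5 genes was fractional (0 of 11 values for each gene), so no read division with another gene was visible in them.

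The RefSeq promoter table (GRCm38.p6) matched 3 of the 5 genes. The windows of 250 bases directly upstream of the starts that RefSeq annotates for Kcne2 and Kcne3 are shown because these are the KCNE gene with the highest per-length level in control mucosa and the one listed near 0 there that stood above the pore gene in the GIF/ATP4B-DTR line. Both strands were searched for GATAAG (bound by GATA factors), for TGACG (the half-site of a cAMP response element) and for AAGGTCA (bound by estrogen-related receptors). Matches are in capitals, and no matches overlap in these windows. In the Kcne2 windows, start 1 is chr16:92292139-92292388 and start 2 is chr16:92295366-92295615, both on the plus strand. In the Kcne3 windows, start 1 is chr7:100176420-100176669 and start 2 is chr7:100178433-100178682, both on the plus strand. The RefSeq starts differ from the release M21 gene starts in part: the first Kcne2 window lies outside the M21 gene, 168 of the 250 bases of the first Kcne3 window lie inside it (75 of them in an exon), and both second windows lie wholly inside, in introns.
Kcne2 start 1: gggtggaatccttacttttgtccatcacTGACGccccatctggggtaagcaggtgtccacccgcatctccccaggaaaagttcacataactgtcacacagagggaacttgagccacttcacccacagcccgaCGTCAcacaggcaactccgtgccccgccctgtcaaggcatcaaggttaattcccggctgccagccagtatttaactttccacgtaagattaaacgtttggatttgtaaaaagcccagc
Kcne2 start 2: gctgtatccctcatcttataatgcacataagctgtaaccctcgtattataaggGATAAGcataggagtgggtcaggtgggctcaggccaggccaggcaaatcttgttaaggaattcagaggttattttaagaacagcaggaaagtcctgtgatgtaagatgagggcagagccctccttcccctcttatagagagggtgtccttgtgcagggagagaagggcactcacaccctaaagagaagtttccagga
Kcne3 start 1: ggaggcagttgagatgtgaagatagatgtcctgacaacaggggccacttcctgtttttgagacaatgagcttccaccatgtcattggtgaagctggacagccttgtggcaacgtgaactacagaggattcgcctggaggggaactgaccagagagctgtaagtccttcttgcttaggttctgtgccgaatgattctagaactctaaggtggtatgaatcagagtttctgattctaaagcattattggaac
Kcne3 start 2: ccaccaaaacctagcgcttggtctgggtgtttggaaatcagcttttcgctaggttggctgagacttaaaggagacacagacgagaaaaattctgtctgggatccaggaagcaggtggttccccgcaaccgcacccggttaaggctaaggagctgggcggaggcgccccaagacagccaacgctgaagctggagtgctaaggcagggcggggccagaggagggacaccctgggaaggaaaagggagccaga
The first Kcne2 window held the cAMP half-site letters in 2 places, once on either strand, and the second held the GATA letters once. Neither Kcne3 window held any of the letters searched. Over 32851 promoter windows of the same length, 17.8% held TGACG, 6.55% held GATAAG and 4.08% held AAGGTCA, on either strand. The second Kcne3 window had a GC content of 58% and 10 CpG sites, against a median of 52.4% and 6 over all windows, and the first had 46.8% and 3. These matches describe the sequence and were not measured as binding sites.

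The samples held 20.7 to 27.9 M (mega) estimated counts. Levels below are CPM, counts per M counts after TMM scaling of the libraries (trimmed mean of M-values). A gene needed 3 counts to be taken as seen, which correspond to 0.107 to 0.166 CPM; this limit covers counting error only. In the controls the corpus gene Atp4a, which encodes the catalytic subunit of the proton pump, stood at 11129 and 11690 CPM, and the antral hormone gene Gast had at most 1 count. Against control, Atp4a fell by 2.13 ± 0.32 (SE) on the log2 scale in ATP4B-DTR mucosa, by 1.13 ± 0.32 in the GIF-DTR line and by 3.25 ± 0.33 in GIF/ATP4B-DTR (edgeR adjusted p = 0.00146, 0.0338 and 7.47e-05). The samples also differed in Y-linked RNA: Ddx3y stood at 40.9 to 53.3 CPM in 6 samples (both controls, ATP4B-DTR 1 and all GIF/ATP4B-DTR samples) and at 2 counts or fewer in 5 (ATP4B-DTR 2 and 3 and all GIF-DTR samples). For GIF-DTR against control, and for GIF/ATP4B-DTR against GIF-DTR, the line and this difference cannot be told apart.

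The pore gene Kcnq1 was abundant in every genotype and was lowest where both cell types had been targeted. It measured 140 and 144 CPM in the 2 controls. In ATP4B-DTR mucosa it measured 125, 85.9 and 129 CPM, and in GIF-DTR mucosa 134, 113 and 124 CPM. In GIF/ATP4B-DTR mucosa it measured 86.8, 70.2 and 40.7 CPM. All samples of the 3 lines lay below both controls, and the GIF/ATP4B-DTR samples lay below every GIF-DTR sample but overlapped ATP4B-DTR sample 2. In bulk mucosa, fewer cells of a type and less RNA per cell cannot be told apart, here and in the results that follow.

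Kcnq1 fell in GIF/ATP4B-DTR against control by 1.11 ± 0.26 (SE) on the log2 scale, a 2.16-fold lower level (adjusted p = 0.00812, edgeR quasi-likelihood test, Benjamini-Hochberg over all genes tested, 3 of 3 samples below both controls). Against control, its log2 difference was -0.33 ± 0.26 in ATP4B-DTR (edgeR adjusted p = 0.414, 95% interval -0.91 to 0.26) and -0.20 ± 0.27 in GIF-DTR (edgeR adjusted p = 0.661, interval -0.78 to 0.38); neither passed the threshold of 0.05. The order of the means was therefore control, GIF-DTR, ATP4B-DTR and GIF/ATP4B-DTR. Neighbours among the first 3 were not separated by the test (GIF-DTR against ATP4B-DTR 0.13 on the log2 scale, edgeR adjusted p = 0.908). GIF/ATP4B-DTR against GIF-DTR gave -0.91 ± 0.24 on the log2 scale (edgeR adjusted p = 0.0825) and against ATP4B-DTR -0.78 ± 0.24 (edgeR adjusted p = 0.262). DESeq2 called the first of these (adjusted p = 0.00729), and so did edgeR without GIF/ATP4B-DTR sample 1 (adjusted p = 0.0413). No other setting tried called it, and its edgeR adjusted p reached 0.680.

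Kcne2, the parietal cell partner of KCNQ1 at the apical membrane, was likewise lowest in GIF/ATP4B-DTR mucosa. It measured 200.2 and 177 CPM in controls. The ATP4B-DTR samples had 149.95, 157 and 181 CPM and the GIF-DTR samples 187, 141 and 195 CPM. The GIF/ATP4B-DTR samples had 53.3, 132 and 58.3 CPM. Both single lines overlapped the controls, whereas all 3 GIF/ATP4B-DTR samples lay below them; GIF/ATP4B-DTR sample 2 stood apart from the other two, just below the lowest GIF-DTR sample.

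Kcne2 fell in GIF/ATP4B-DTR against control by 1.22 ± 0.33 (SE) on the log2 scale, a 2.32-fold lower level (adjusted p = 0.0164, edgeR). That call was lost without control 1 (-1.12, edgeR adjusted p = 0.0692), without control 2 (-1.30, adjusted p = 0.0544), without GIF/ATP4B-DTR sample 3 (-1.02, adjusted p = 0.0518) and when only these groups were fitted (-1.19, adjusted p = 0.0752). The log2 difference from control was -0.21 ± 0.33 in ATP4B-DTR (edgeR adjusted p = 0.681, 95% interval -0.95 to 0.52) and -0.12 ± 0.33 in GIF-DTR (edgeR adjusted p = 0.855, interval -0.85 to 0.62). Against the single lines, the double line gave -1.002 ± 0.301 relative to ATP4B-DTR (edgeR adjusted p = 0.256) and -1.10 ± 0.30 relative to GIF-DTR (edgeR adjusted p = 0.0975), which did not pass. DESeq2 called both (adjusted p = 0.0441 and 0.00733), and so did edgeR without GIF/ATP4B-DTR sample 2 (adjusted p = 0.0128 and 0.000853). No other setting tried called either difference, and their edgeR adjusted p reached 0.737 and 0.790 in the same order.

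Kcne1, the subunit of the slow delayed rectifier, followed a different pattern of genotypes, one of the changes it was picked for. In controls it measured 20.8 and 14.7 CPM (463 and 265 counts). The ATP4B-DTR samples had 0.978, 1.23 and 0.373 CPM, which were 21, 28 and 9 counts. The GIF-DTR samples had 23.5, 13.1 and 13.8 CPM and the GIF/ATP4B-DTR samples 0.968, 2.18 and 2.28 CPM. The 11 values thus formed a high set, made of the controls and GIF-DTR, and a low set, made of both lines that carry ATP4B-DTR, with no value between 2.28 and 13.1 CPM. On the log2 scale the fitted difference from control was -4.37 ± 0.48 (SE) for ATP4B-DTR, -3.29 ± 0.45 for GIF/ATP4B-DTR and -0.08 ± 0.42 for GIF-DTR. Between the low groups, GIF/ATP4B-DTR was 1.08 ± 0.45 above ATP4B-DTR, with samples that overlapped.

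Kcne3, the subunit of the constitutively open channel of secretory epithelia, went the other way. It was listed at 3 and 11 counts in the controls, which were 0.135 and 0.610 CPM, the first of them at the lowest level that could be seen. The ATP4B-DTR samples had 34.9, 15.98 and 14.95 CPM and the GIF-DTR samples 17.9, 25.9 and 30.9 CPM. The GIF/ATP4B-DTR samples had 92.8, 59.98 and 46.3 CPM. All samples of the lines lay above both controls, the single lines overlapped each other, and the GIF/ATP4B-DTR samples lay above every other sample. Fitted log2 differences from control were 7.54 ± 0.73 (SE) for GIF/ATP4B-DTR, 6.12 ± 0.71 for GIF-DTR and 5.94 ± 0.71 for ATP4B-DTR. Their size rested on few control counts: with control 2 left out they were 8.89, 7.47 and 7.29, and with control 1 left out 6.76, 5.34 and 5.16. Between the lines, GIF/ATP4B-DTR was 1.60 ± 0.41 above ATP4B-DTR and 1.41 ± 0.40 above GIF-DTR on the log2 scale. With a Y-linked covariate in the fit these were 0.92 and 0.22. Only ATP4B-DTR held samples with and without Y-linked RNA, so that covariate rests mainly on its sample 1, which was also its highest in Kcne3. The fit with the covariate therefore cannot separate line from Y-linked RNA.

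Kcne4, the inhibitory subunit, was barely expressed. Control 1 had 0 counts, which allows up to 3 counts or 0.135 CPM, and control 2 had 18 counts (0.998 CPM). The ATP4B-DTR samples had 8, 5 and 8 counts, the GIF-DTR samples 30, 10 and 10, and the GIF/ATP4B-DTR samples 4, 9 and 6. The 2 controls lay far apart, every line overlapped them, and GIF-DTR sample 1 lay above both. The log2 differences from control were -0.65 ± 1.11 (SE) in ATP4B-DTR (edgeR adjusted p = 0.711), 0.58 ± 1.09 in GIF-DTR (edgeR adjusted p = 0.766) and -0.93 ± 1.12 in GIF/ATP4B-DTR (edgeR adjusted p = 0.543). Leaving out 1 control turned the direction in each of these comparisons, so differences of this size did not exceed the spread between samples at these low counts.

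**Figure D1:**
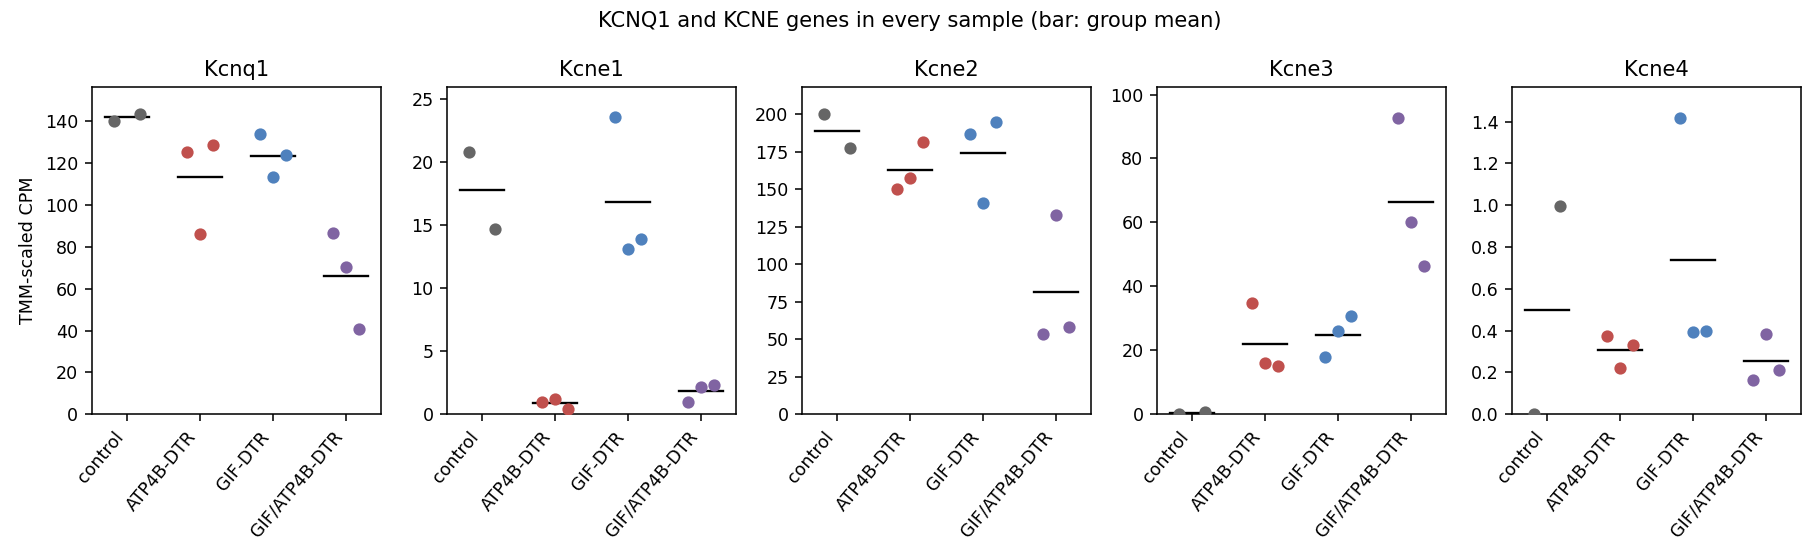
TMM-scaled CPM of Kcnq1, Kcne1, Kcne2, Kcne3 and Kcne4 (1 panel each, linear axes from 0 with their own range) by genotype, with 1 point a sample and a bar at the group mean. Kcne1 is low in ATP4B-DTR and GIF/ATP4B-DTR samples (0.373 to 2.28 CPM), Kcne3 is low in the controls (0.135 and 0.610 CPM), and Kcnq1 and Kcne2 have their lowest means in GIF/ATP4B-DTR.

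Of the 3 tested members, 2 were called in GIF/ATP4B-DTR against control, where 33.6% of all genes tested were called (15.4% as lower). None was called in ATP4B-DTR against control (background 21.6%) or in GIF-DTR against control (16.8%); in both comparisons 0 had an unadjusted edgeR p under 0.05 and DESeq2 called 0. In GIF-DTR against ATP4B-DTR edgeR called 0 of 3 members (background 0.49%), 0 at an unadjusted p under 0.05 and 0 by DESeq2. In GIF/ATP4B-DTR against ATP4B-DTR edgeR called 0 of 3, as it called 0% of all genes; 2 had an unadjusted p under 0.05 and DESeq2 called 1. In GIF/ATP4B-DTR against GIF-DTR edgeR called 0 of 3 (background 2.53%), with 2 at an unadjusted p under 0.05 and 2 called by DESeq2. The median log2 difference of all genes lay between -0.04 and 0.01 in the 6 comparisons. Over all genes, an unadjusted edgeR p under 0.05 was found for 34.8%, 31.4% and 44.5% in ATP4B-DTR, GIF-DTR and the double line against control. Between the lines it was found for 9.81% (GIF-DTR against ATP4B-DTR), 10.4% (double line against ATP4B-DTR) and 18% (double line against GIF-DTR). DESeq2 called 25.3%, 22.9%, 35.8%, 2.44%, 1.98% and 6.5% of the genes it gave an adjusted p, in the same order of comparisons. The comparisons with control share the same 2 control samples.

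**Figure D2:**
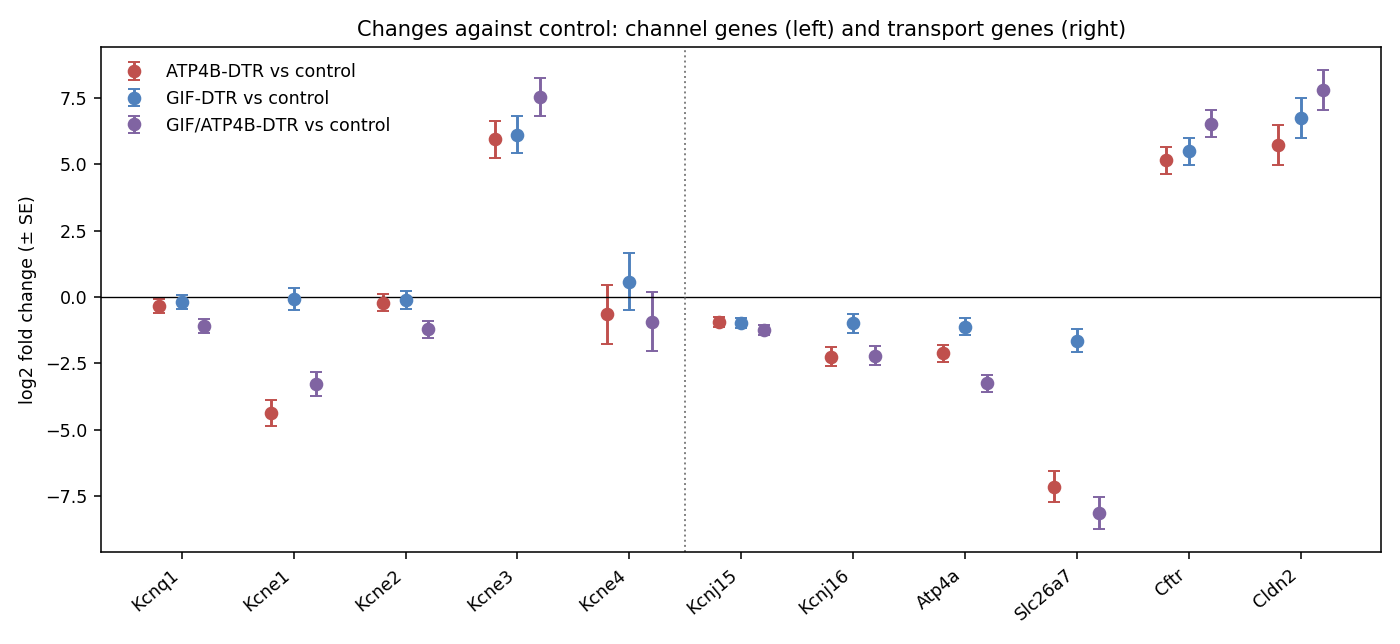
Fitted log2 fold change against control, with its SE as error bars, of the 5 channel genes (left of the dotted line) and of 6 transport genes named in the text (right), for each line. Kcnq1 (-1.11) and Kcne2 (-1.22) in GIF/ATP4B-DTR are the channel gene changes that passed the test; Kcne1 and Kcne3 are shown as a description.

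Levels of different genes can be set side by side only per length, as CPM per kb of exon. In control mucosa Kcne2 stood at 107 ± 9.15 CPM per kb (SD, n = 2) and Kcnq1 at 34.7 ± 0.60, followed by Kcne1 at 5.52 ± 1.34. Kcne3 at 0.209 ± 0.189 and Kcne4 at 0.188 ± 0.266 came last and did not differ beyond their spread. In ATP4B-DTR the order was Kcne2 (92.2 ± 9.31, n = 3), Kcnq1 (27.7 ± 5.81), Kcne3 (12.3 ± 6.30), Kcne1 (0.268 ± 0.137) and Kcne4 (0.116 ± 0.030). In GIF-DTR Kcne2 (98.5 ± 16.5) and Kcnq1 (30.2 ± 2.48) again led, with Kcne3 (13.99 ± 3.67) above Kcne1 (5.23 ± 1.81). In GIF/ATP4B-DTR Kcne2 stood at 46.0 ± 25.1 and Kcne3 at 37.3 ± 13.4 CPM per kb, a difference within their spread, and both above Kcnq1 at 16.1 ± 5.70. In that line Kcne3 exceeded the pore gene in 3 of 3 samples and exceeded Kcne2 in GIF/ATP4B-DTR sample 1 (52.2 against 30.2 CPM per kb). With the length of the longest transcript in place of all exons, the order of the group means turned, with Kcne3 at 50.1 and Kcne2 at 48.1 CPM per kb, and Kcne3 exceeded Kcne2 also in sample 3 (34.98 against 34.49).

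The make-up of the KCNE transcripts changed with genotype, as a description that includes the 2 genes picked for their changes. Kcne2 made up 94.5% and 94.99% of the summed per-length level of the 4 KCNE genes in controls. Its share was 80.9% to 92.2% in ATP4B-DTR, 80.9% to 85.5% in GIF-DTR and 36.5% to 68.5% in GIF/ATP4B-DTR. Kcne3 made up 0.0632% and 0.324% in controls, 7.55% to 18.7% in ATP4B-DTR, 8.16% to 14.8% in GIF-DTR and 30.8% to 63.1% in GIF/ATP4B-DTR. Kcne1 made up 4.33% and 5.40% in controls and 3.26% to 5.92% in GIF-DTR, but 0.104% to 0.388% in ATP4B-DTR and 0.364% to 1.19% in GIF/ATP4B-DTR. The summed KCNE level per unit of Kcnq1 was 3.25 ± 0.35 (SD) in controls, 3.88 ± 0.70 for ATP4B-DTR, 3.90 ± 0.42 for GIF-DTR and 5.43 ± 1.34 for GIF/ATP4B-DTR, and the ranges of the groups overlapped in part. Intervals for these shares would cover counting error only and are not given, because per-length sums are not counts.

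**Figure D3:**
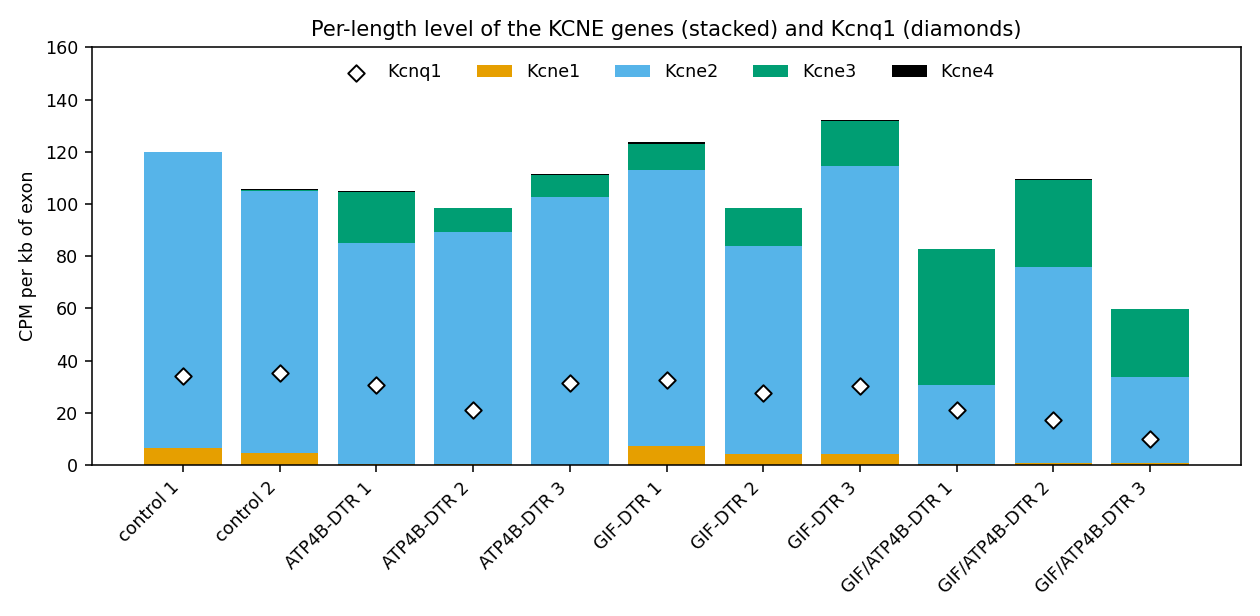
Level per length (CPM per kb of exon) in each of the 11 samples, with the 4 KCNE genes stacked and Kcnq1 as diamonds on the same axis. Kcne2 makes up most of the stack in the controls (94.5% and 94.99%), and Kcne3 makes up 30.8% to 63.1% in GIF/ATP4B-DTR.

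Relative to the proton pump gene, Kcnq1 and Kcne2 stood higher in the lines than in the controls. Per 1000 CPM of Atp4a, Kcnq1 stood at 12.0 and 12.9 CPM in controls, 38.4 to 54.4 in ATP4B-DTR, 23.2 to 24.1 in GIF-DTR and 35.2 to 122 in GIF/ATP4B-DTR. Kcne2 stood at 15.9 and 17.1 CPM per 1000 CPM of Atp4a in controls, 54.1 to 71.9 in ATP4B-DTR, 29.4 to 36.5 in GIF-DTR and 50.3 to 77.1 in GIF/ATP4B-DTR. For both genes every sample of every line lay above both controls, and the ratio describes unequal change only. Kcne1 did not share this order: its ratio to Atp4a was 1.32 and 1.78 in controls, 0.111 to 0.562 in ATP4B-DTR, 2.59 to 4.23 in GIF-DTR and 1.27 to 1.97 in GIF/ATP4B-DTR. Its ratio in the double line thus overlapped the controls while its ratio in ATP4B-DTR lay below them.

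**Figure D4:**
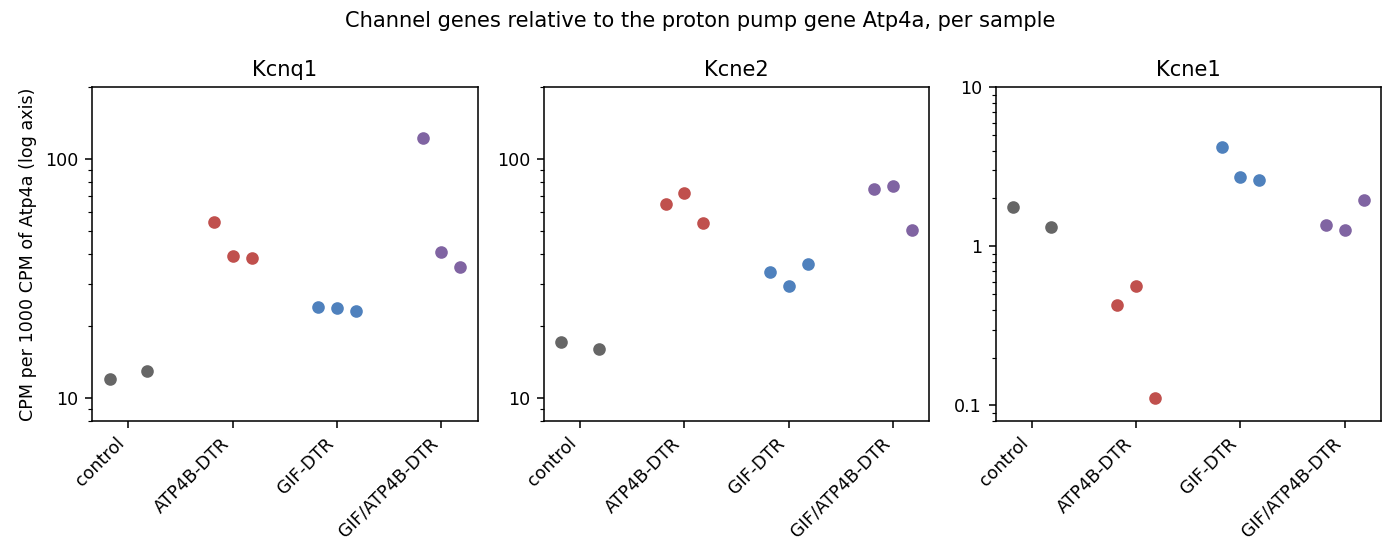
CPM of Kcnq1, Kcne2 and Kcne1 per 1000 CPM of the proton pump gene Atp4a (log axes, range set per panel) by genotype, 1 point a sample. Kcnq1 and Kcne2 lie above the controls in all samples of the 3 lines, whereas Kcne1 is lowest in ATP4B-DTR (0.111 to 0.562).

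A list of 17 genes linked to acid secretion by the parietal cell, with 16 tested, was chosen with earlier results known. It holds the pump genes, channels and transporters, and also Ezr, Car2 and Aqp4, which do not encode ion transporters. All its calls against control were falls, with Ezr among them in each line. Some of its genes did not pass in each line, and the list was not tested as a set. Mean Car2, not called, was 3456 CPM in ATP4B-DTR mucosa against 2321 CPM in controls. In ATP4B-DTR 11 fell, where 9.39% of all genes fell, and 0 rose (median log2 difference -1.16, against -0.01 for all genes). In GIF-DTR 7 fell, where 6.82% of all genes fell, and 0 rose (median -0.68). In GIF/ATP4B-DTR 12 fell, where 15.4% of all genes fell, and 0 rose (median -1.28, against -0.04 for all genes). Kcnj15, a potassium channel of the parietal cell, fell against control by 1.24 ± 0.20 (SE) on the log2 scale in GIF/ATP4B-DTR, by 0.97 ± 0.20 in GIF-DTR and by 0.94 ± 0.20 in ATP4B-DTR (edgeR adjusted p = 0.000870, 0.00899 and 0.00708). Kcnj16, which encodes an inward rectifier subunit, fell by 2.22 ± 0.36 in GIF/ATP4B-DTR and by 2.25 ± 0.36 in ATP4B-DTR (edgeR adjusted p = 0.00111 and 0.00228), while its value in GIF-DTR was -0.99 ± 0.35 (adjusted p = 0.0811). Kcnj10 did not pass against control in any line, and Kcnj1 had too few counts to be tested. Slc26a7, a chloride transporter, fell in all 3 lines, with log2 differences from control of -8.14 in GIF/ATP4B-DTR, -7.15 in ATP4B-DTR and -1.64 in GIF-DTR, and was at 0 counts in GIF/ATP4B-DTR sample 1. Between the single lines 2 genes of the list were higher in GIF-DTR (Atp4b and Slc26a7, median of the list 0.45), where 0.403% of all genes were higher and 0.0873% lower. In that comparison 9 of 16 had an unadjusted edgeR p under 0.05 (9.81% of all genes) and DESeq2 called 7 (2.44%). In GIF/ATP4B-DTR 6 were lower than in GIF-DTR (median -0.74), where 2.19% of all genes were lower and 0.336% higher; 9 of 16 had an unadjusted p under 0.05 (18% of all genes) and DESeq2 called 7 (6.5%). GIF/ATP4B-DTR against ATP4B-DTR gave 0 calls with edgeR (0% of all genes), 5 of 16 at an unadjusted p under 0.05 (10.4% of all genes) and 3 with DESeq2 (1.98%).

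Genes of epithelial chloride secretion, a list of 14 with 13 tested, had edgeR calls against control in both directions. Cftr, a chloride channel activated through cyclic AMP, and Cldn2, a tight junction pore protein, rose in all 3 lines. Cldn2 had 3 and 2 counts in the controls. Cftr measured 0.359 and 0.277 CPM in controls, 8.78 to 13.2 CPM in ATP4B-DTR, 9.18 to 20.8 CPM in GIF-DTR and 24.3 to 41.2 CPM in GIF/ATP4B-DTR. Its log2 differences from control were 5.15 ± 0.50 (SE), 5.49 ± 0.51 and 6.53 ± 0.51 in the same order (edgeR adjusted p = 0.000200, 0.000471 and 2.17e-05). Kcnn4, a calcium-activated potassium channel, rose in GIF/ATP4B-DTR by 0.62 ± 0.18 (edgeR adjusted p = 0.0213) and did not pass in ATP4B-DTR (0.43, adjusted p = 0.113) or GIF-DTR (0.31, adjusted p = 0.272). Slc12a2, the basolateral cotransporter that loads chloride, and Slc26a6 fell in ATP4B-DTR and GIF/ATP4B-DTR, and Atp1b1, a sodium pump subunit, fell in GIF-DTR and GIF/ATP4B-DTR. The list's median log2 difference from control was 0.35 for ATP4B-DTR, -0.06 for GIF-DTR and 0.23 for GIF/ATP4B-DTR, with 2, 2 and 3 genes higher (all genes: 12.2%, 9.97% and 18.2%) and 2, 1 and 3 lower (all genes: 9.39%, 6.82% and 15.4%). Kcnk5, another potassium channel of the list, did not pass in any line. Between the lines edgeR called 0 genes of this list in each of the 3 comparisons, where it called 0.49%, 0% and 2.53% of all genes. In the same comparisons 5, 3 and 4 of the 13 genes had an unadjusted p under 0.05 (9.81%, 10.4% and 18% of all genes) and 1, 2 and 2 were called by DESeq2 (2.44%, 1.98% and 6.5%).

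Other KCNQ genes and pore subunits known to pair with KCNE proteins, a list of 11 with 7 tested, gave 0 calls with edgeR in all 6 comparisons. Over all genes, the shares called were 21.6%, 16.8% and 33.6% for ATP4B-DTR, GIF-DTR and the double line against control, and 0.49%, 0% and 2.53% between the lines, where 0 of 7 is near the background. Unadjusted p-values under 0.05 numbered 2 of 7 in GIF/ATP4B-DTR against control, where 44.5% of all genes had one. Kcnd3 was among them (-1.60 ± 0.62 on the log2 scale, adjusted p = 0.0677 with edgeR). They numbered 1 in GIF-DTR against control (31.4% of all genes) and 1 in GIF/ATP4B-DTR against GIF-DTR (18%). The other comparisons had 0 (34.8% in ATP4B-DTR against control, 9.81% and 10.4% between the lines). DESeq2 called 1 of 7 in GIF/ATP4B-DTR against control (35.8% of all genes) and 0 elsewhere (25.3% and 22.9% against control, 2.44%, 1.98% and 6.5% between the lines). Proteins that bind or regulate KCNQ1, a list of 11 that were all tested, had 2 calls in ATP4B-DTR against control (1 higher, 1 lower), 1 in GIF-DTR (higher) and 4 in GIF/ATP4B-DTR (2 higher, 2 lower). With 21.6%, 16.8% and 33.6% of all genes called, these counts are near the background. Calm3, a calmodulin gene, rose in all 3 lines. Prkacb, a catalytic subunit of protein kinase A, fell in ATP4B-DTR and GIF/ATP4B-DTR, and Pde4d, a cyclic AMP phosphodiesterase, fell in GIF/ATP4B-DTR. The list's median log2 difference was 0.24 for GIF/ATP4B-DTR, 0.14 for GIF-DTR and 0.25 for ATP4B-DTR. Between the lines edgeR called 0 of these genes in each of the 3 comparisons, with at most 1 at an unadjusted p under 0.05 and at most 1 called by DESeq2. Over all genes these shares were 9.81%, 10.4% and 18% unadjusted, and 2.44%, 1.98% and 6.5% with DESeq2.

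Cell type markers differed between the same groups; over all genes, 9.39% fell and 12.2% rose in ATP4B-DTR, 6.82% and 9.97% in GIF-DTR, and 15.4% and 18.2% in GIF/ATP4B-DTR. Of 8 parietal cell markers, 7 fell in GIF/ATP4B-DTR, 6 in ATP4B-DTR and 5 in GIF-DTR. Their summed level was 16507 and 17548 CPM in controls, 3279 to 4694 for ATP4B-DTR, 7474 to 9700 for GIF-DTR and 1104 to 2602 for GIF/ATP4B-DTR, with none at 0. Of 6 chief cell markers, 4 fell in GIF-DTR, 4 in GIF/ATP4B-DTR and 0 passed in ATP4B-DTR. Their sum was 108097 and 225553 CPM in controls, 24230 to 81741 in ATP4B-DTR, 5753 to 25956 in GIF-DTR and 3381 to 16662 in GIF/ATP4B-DTR. The 6 proliferation markers rose in every line. Their sum went from 202 to 283 CPM in controls to 464 to 768 CPM in the lines. Of 7 markers of SPEM (spasmolytic polypeptide-expressing metaplasia, a repair state of the corpus gland), 5 rose in each line. That list leaves out Muc6 and Tff2, which were listed as the 2 mucous neck cell markers. Of these 2, 0 rose and 1 fell in each line against control. Mean Muc6 was 358 CPM in controls, 65.2 for ATP4B-DTR, 28.7 for GIF-DTR and 9.85 for the double line. Mean Tff2 was 930 CPM in controls and 913, 1276 and 1062 CPM for the lines in that order. Like Kcne3, the SPEM and proliferation sums were higher in every line than in the controls. Among the lines the samples overlapped for both sums, whereas Kcne3 in GIF/ATP4B-DTR lay above every other sample. The SPEM sum was 1908 to 3911 CPM in ATP4B-DTR, 1669 to 3935 in GIF-DTR, 1859 to 3694 in GIF/ATP4B-DTR, and 1138 and 1551 in controls. Clu made up most of it in the controls (1049 and 1468 CPM). The proliferation sum was 516 to 722 CPM in ATP4B-DTR, 464 to 671 in GIF-DTR and 623 to 768 in GIF/ATP4B-DTR. Pdx1, a transcription factor of the antrum and duodenum, was at most 0.314 CPM in controls and 0.922 to 8.10 CPM in the lines, but Gast was at 0 or 1 counts in 8 of 11 samples, and it was present at 28 to 42 counts in ATP4B-DTR sample 3 and GIF-DTR samples 1 and 2. The intestinal factors Cdx1 and Cdx2 were at or near 0 in every sample, with at most 5 counts. The sum of the 7 intestine markers, which include them, was high and low in the same groups as Kcne1: 1522 and 1881 CPM in controls, 941 to 1993 in GIF-DTR, 183 to 219 in ATP4B-DTR and 194 to 226 in GIF/ATP4B-DTR. Most of that sum in the controls and GIF-DTR was Apoa1, an apolipoprotein gene, at 793 to 1901 CPM there and 48.8 to 96.7 CPM in the other lines. Other markers of that list differed from it: Fabp2, a fatty acid binding protein gene, rose against control in GIF-DTR and GIF/ATP4B-DTR (log2 difference 1.32 and 1.95, edgeR adjusted p = 0.0496 and 0.00519), and Vil1 did not pass in any line. The part of these markers in the differences of the channel genes was not tested.

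Kcne4 was highest in the libraries with the most stromal RNA. Control 2 and GIF-DTR sample 1, which held its highest levels, also had the highest sums of 5 fibroblast markers (330 and 482 CPM, against 37.9 to 185 in the other 9 samples) and of 8 smooth muscle markers (2265 and 2631 CPM, against 266 to 1282). None of these markers was at 0 in any sample, and their part in the Kcne4 values was not tested.

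The genes most like each member in profile were ranked by Pearson's r of log2 CPM over the 11 samples, which share 4 genotypes, among 10018 genes with a mean of at least 5 CPM. For Kcnq1 they were Gstm7 (r = 0.98), Zfp523, Cckar, Ptov1 and Khk (r = 0.93). For Kcne2 they were Cd320 (0.98), Brms1l, Trim50, Slc25a4 and Adssl1 (0.94). For Kcne1 they were Hamp2 (0.95), Apoa1, Ccdc91, Capns1 and the mitochondrial gene mt-Nd2 (0.92). For Kcne3 they were Upf3b (0.97), Rfc5, Cftr (0.97), Ccdc34 and Fetub (0.97), and for Kcne4 Map3k20 (0.98), Vim, Thbd, Barx1 and Col5a2 (0.95). After removing the genotype means, r stayed at 0.80 or above for the 5 genes of Kcnq1, the 5 of Kcne2 and the 5 of Kcne4, while it was 0.56 to 0.82 for the 5 of Kcne1 and 0.17 (Cftr) to 0.78 (Fetub) for the 5 of Kcne3. These genes were picked for the highest r over the same samples, so high values after this step are in part fixed by the choice. Kcne4 had its most counts in control 2 (18) and GIF-DTR sample 1 (30), on which its values mainly rest. By Spearman's rank correlation, 0 of the 5 genes were the same for Kcnq1, Kcne2 and Kcne3 and 1 of 5 for Kcne1 and Kcne4, so the names depend on the measure.

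Among members and transport genes, Kcne2 and Atp4a had r = 0.83 over the 11 samples and 0.84 within genotypes, and Kcnq1 and Atp4a had 0.75 and -0.07. Kcnq1 and Kcne2 had r = 0.77 over the samples but 0.20 within genotypes. Kcne1 had r = 0.75 with Atp4a (0.17 within genotypes) and 0.90 with Slc26a7 (0.27). Kcne1 and Kcne3 had r = -0.52 and -0.33 within genotypes. These values describe 11 samples and carry no test.

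**Figure D5:**
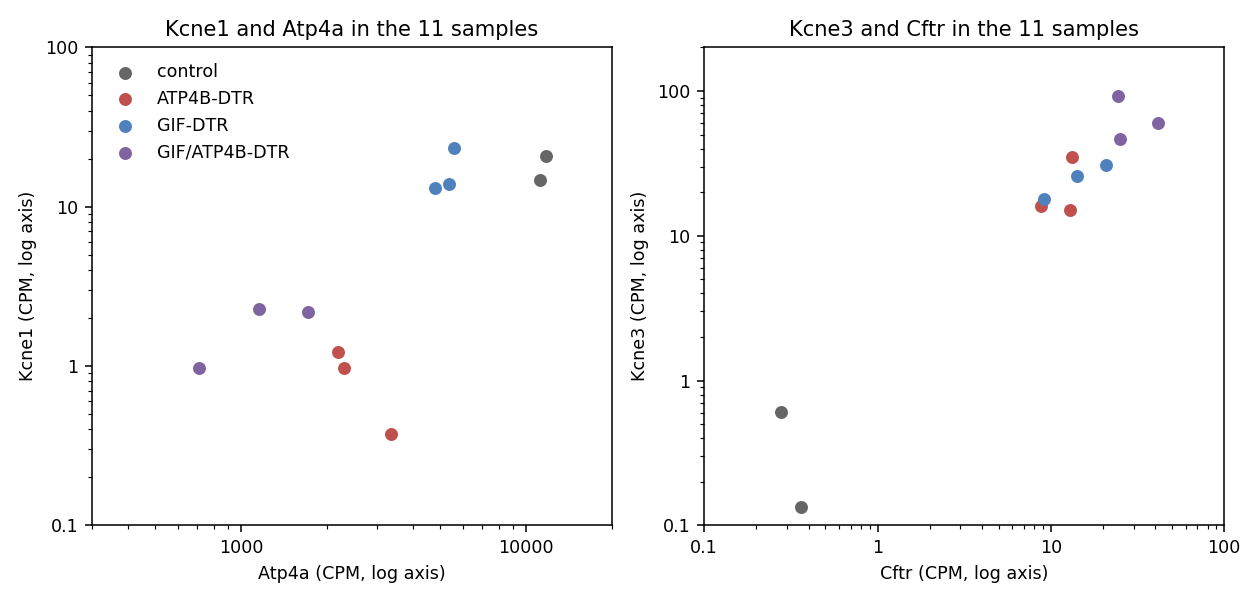
Kcne1 against Atp4a (left) and Kcne3 against Cftr (right), CPM on log axes, 1 point a sample. GIF-DTR samples keep Kcne1 at 13.1 to 23.5 CPM with Atp4a below the controls, and the controls are apart from all lines for both Kcne3 and Cftr.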

How the data were processed

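Bulk RNA was sequenced from 11 corpus mucosa samples, in libraries made with a stranded TruSeq mRNA kit, per the labels' protocols. Estimated counts of 34866 genes, 34582 of them with a symbol, were deposited as 1 table; that the authors' values are estimated counts was read from the values, of which 30.7% of the nonzero ones are fractional. The build was mm10, per the submitters' processing notes; aligner, quantifier and annotation are not given in the sources used here. No table column was left out (0).

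Estimated counts were rounded to whole numbers. Genes were kept by filterByExpr (14889) and tested with edgeR 4.0.16 in R 4.3.3: TMM scaling, a robust quasi-likelihood fit of all 11 samples with 1 coefficient per genotype, and Benjamini-Hochberg adjustment with a threshold of 0.05. The biological coefficient of variation was 26.6%. The test was checked on simulated data. Correlations used log2 CPM with a prior count of 2. CPM per kb used GENCODE M21 union exon length.

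The members and lists were chosen with earlier results of these data known. Besides the 5 members and the listed potassium channel, pump, Slc26a7 and Cftr genes, the text names the 5 genes most like each member. Other listed genes were named after their values were seen, both genes that passed the test and genes that did not; some listed genes are not reported here by name.

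Alternatives were DESeq2 1.42.0, DESeq2 size factors, scaling without the 50 most abundant genes, no filter, at least 10 counts in every sample, only the 2 groups compared, a Y-linked covariate, longest-transcript length, Spearman correlation, and leaving out each sample.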

Additional observations from a re-analysis of the deposited data

How the results depend on the processing

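Across the settings tried, 334 of the member values stayed on their side of the threshold with the same sign or, where untested, moved by less than the spread between samples; 6 tested values changed sign, 4 lost a call, 6 gained one and 7 untested values moved further. Among the 334, 5 untested values changed sign: Kcne1 in GIF-DTR against control (0.04 to 0.26 in 4 settings) and Kcne3 in GIF-DTR against ATP4B-DTR (-0.028 without ATP4B-DTR sample 3). The 6 tested sign changes were in values that did not pass: Kcne4 against control, without control 1 (-0.45 in GIF-DTR), without control 2 (5.90 for ATP4B-DTR, 5.62 for GIF/ATP4B-DTR) and without GIF-DTR sample 1 (-0.29); Kcnq1 in GIF-DTR against ATP4B-DTR without ATP4B-DTR sample 2 (-0.040); and Kcne2 in GIF-DTR against control without GIF-DTR sample 2 (0.014). Over the left-out samples Kcne4 ranged from -1.68 to 5.90 in ATP4B-DTR, -0.45 to 7.13 in GIF-DTR and -1.96 to 5.62 in GIF/ATP4B-DTR, Kcnq1 from -0.040 to 0.23 and Kcne2 from -0.21 to 0.014 in the comparisons just named. Control 1 had 0 counts of Kcne4.

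The fall of Kcnq1 in GIF/ATP4B-DTR against control passed in all alternatives run (adjusted p at most 0.0446 with edgeR or DESeq2). That of Kcne2 ranged from -1.76 to -0.99 when samples were left out, and was -1.19 with only the 2 groups fitted. With DESeq2, Kcne2 gave -0.99 against ATP4B-DTR and -1.09 against GIF-DTR, and Kcnq1 gave -0.90 against GIF-DTR, all called. Leaving out samples gave Kcne2 -1.55 to -0.77 against ATP4B-DTR and -1.64 to -0.87 against GIF-DTR, and Kcnq1 -1.16 to -0.65 against GIF-DTR. For Kcne3 against control, these ranges were 5.16 to 7.29 in ATP4B-DTR, 5.34 to 7.47 in GIF-DTR and 6.76 to 8.89 in GIF/ATP4B-DTR. With the Y-linked covariate, Kcne3 in GIF-DTR against control was 7.23, and the double line gave 0.92 against ATP4B-DTR and 0.22 against GIF-DTR. That covariate rests mainly on ATP4B-DTR sample 1 against samples 2 and 3, because no other group held both kinds of sample. These values therefore cannot separate line from Y-linked RNA, and the cause of the shifts was not tested. Leaving out a control leaves 1, which is assumed to vary like the other groups.

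Genes called with the Y-linked covariate numbered 2012 (ATP4B-DTR against control), 491 (GIF-DTR against control), 22 (GIF-DTR against ATP4B-DTR), 1 (GIF/ATP4B-DTR against ATP4B-DTR) and 15 (GIF/ATP4B-DTR against GIF-DTR), against 3211, 2500, 73, 0 and 376. DESeq2 gave 361, 277 and 936 in the last 3. GIF/ATP4B-DTR against ATP4B-DTR gave 57 with no filter and 1 with only the 2 groups. GIF-DTR against ATP4B-DTR gave 30 among the 5 samples without Y-linked counts, a setting chosen after seeing the data. Leaving out samples gave 1315 to 2923, 871 to 2007, 17 to 140, 0 to 43 and 160 to 320 in the same order, and 2874 to 4631 for GIF/ATP4B-DTR against control (5005). Requiring 10 counts in every sample gave no value for Kcne1, Kcne3 and Kcne4. Scaling alternatives moved the median of all genes by under 0.1 on the log2 scale. No paired analysis was possible because only the controls carry replicate numbers in their labels, so the groups compared share fewer than 2 numbers.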
